A study of Mus musculus with 4 samples.

Results

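Histone H3 propionylated on a lysine of its tail (H3K23pr) was followed at 45 hepatocyte genes, using ChIP-seq peaks from the livers of male C57BL/6 mice. The genes were chosen as a list of names, with earlier results of these data known. Of these genes 36 encode proteins that hepatocytes secrete into the blood, 7 encode transcription factors that define the hepatocyte, and 2, Glul and Ttpa, encode proteins that stay in the cell. They were counted among 21887 protein-coding genes on the assembled chromosomes of GRCm38.p6, and all 45 were found by symbol. A peak belonged to a gene when it overlapped the gene or the 5 kb on either side of it. No peak lay in the windows of 2 of these genes at once.

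The knockout animals carried a hepatocyte-specific knockout of RPN11, called KO here, and the other animals were RPN11 flox/flox, called WT after the titles. RPN11 is the deubiquitylating subunit of the proteasome lid. The Cre driver, the age, the diet and the number of mice behind a library are not given in the sources used here, and whether WT mice carried Cre is not given either. Each genotype had 1 H3K23pr immunoprecipitate (IP) and 1 input library, and each IP was called against its own input. Differences between genotypes therefore have no replicate check, no p-value is given for them, and genotype, mouse and library cannot be told apart. Intervals are exact 95% intervals and cover counting error only. Those on peak numbers and on shares of peaks take each peak as independent. They leave out the spread of peak number between genes and can be too narrow. A peak list holds no measure of RPN11 itself or of gene expression, so neither the knockout nor the hepatocyte content of the tissue was checked here.

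The KO IP held 15468265 fragments after duplicate filtering and the WT IP 13615838. The KO list held 41907 peaks with a median width of 92 bp, and the WT list held 54397 peaks with a median width of 130 bp. Mean fragment size was 71 bp in KO and 97 bp in WT, and the lowest local background the caller used was 0.568 fragments in KO and 0.692 in WT. A peak needed at least 4 fragments at its summit in either list. Up to 2 fragments with the same ends were kept, so that 4 fragments can stand for as few as 2 different ones. What part these differences between the libraries have in the values below was not tested.

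Plasma protein genes are among the most highly transcribed genes of the liver. Albumin and other carriers hold the osmotic pressure of blood and bring metals, vitamins and haem to tissues, coagulation factors and complement components circulate as inactive precursors, and protease inhibitors hold such cascades in check. The genes are switched on together by a set of factors that includes CEBPA and CEBPB, the forkhead proteins FOXA1, FOXA2 and FOXA3, and the homeobox protein ONECUT1. Propionylation of histone lysines draws on propionyl-CoA, a product of the breakdown of odd-chain fatty acids and some amino acids, and is known as a mark of active chromatin.

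The promoters of the 2 kinds of gene differed in base composition. RefSeq promoter windows of GRCm38.p6, from 250 bases before to 50 bases after a start, were given for 38 of the 45 genes, with 44 starts in all. Hp, Kng1, Ttr, Cfb, Ttpa, Plg and Trf had no entry. Median GC was 48.2% over 30 secreted protein genes, 67.3% over the 7 transcription factor genes and 56.3% over the protein-coding genes with an entry. The ratio of observed to expected CpG had a median of 0.22 in secreted protein genes, 0.85 in transcription factor genes and 0.56 in those genes. The 250 bases before the start are printed below for 5 secreted protein genes that the peak numbers turn on or that stand for the class, and for Cebpa as the contrast, with motif matches in capitals on either strand.
F5: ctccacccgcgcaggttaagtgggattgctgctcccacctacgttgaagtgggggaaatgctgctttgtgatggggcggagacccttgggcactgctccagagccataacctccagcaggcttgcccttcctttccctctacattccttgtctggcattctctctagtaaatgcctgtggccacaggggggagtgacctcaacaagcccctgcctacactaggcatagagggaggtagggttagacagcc
Gc: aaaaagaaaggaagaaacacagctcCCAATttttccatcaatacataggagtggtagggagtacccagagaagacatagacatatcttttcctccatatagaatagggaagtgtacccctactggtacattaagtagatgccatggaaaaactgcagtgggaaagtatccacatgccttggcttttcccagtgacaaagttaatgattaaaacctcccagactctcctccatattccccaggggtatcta
C8a: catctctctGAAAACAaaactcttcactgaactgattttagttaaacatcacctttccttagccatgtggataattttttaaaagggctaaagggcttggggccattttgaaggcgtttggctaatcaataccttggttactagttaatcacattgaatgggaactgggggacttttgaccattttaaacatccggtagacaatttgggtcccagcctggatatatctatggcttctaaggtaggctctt
Cp: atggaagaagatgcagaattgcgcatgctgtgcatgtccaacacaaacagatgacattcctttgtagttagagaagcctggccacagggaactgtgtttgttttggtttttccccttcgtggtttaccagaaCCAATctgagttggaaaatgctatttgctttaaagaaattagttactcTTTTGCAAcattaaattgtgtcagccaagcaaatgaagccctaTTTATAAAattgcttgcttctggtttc
Alb: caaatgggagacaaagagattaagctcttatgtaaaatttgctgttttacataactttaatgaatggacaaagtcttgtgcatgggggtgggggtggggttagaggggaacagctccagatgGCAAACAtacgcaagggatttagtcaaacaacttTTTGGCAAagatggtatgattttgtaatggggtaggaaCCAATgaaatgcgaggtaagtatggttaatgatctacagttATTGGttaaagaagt
Cebpa: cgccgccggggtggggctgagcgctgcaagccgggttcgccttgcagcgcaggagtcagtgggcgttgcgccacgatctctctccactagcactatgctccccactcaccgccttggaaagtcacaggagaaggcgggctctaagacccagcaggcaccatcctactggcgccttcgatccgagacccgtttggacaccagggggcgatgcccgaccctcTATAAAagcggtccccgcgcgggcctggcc
These are chr1:164151585-164151834 on the plus strand for F5, chr5:89457899-89458148 on the minus strand for Gc, chr4:104876399-104876648 on the minus strand for C8a, chr3:19956999-19957248 on the plus strand for the more downstream of the starts of Cp, chr5:90460620-90460869 on the plus strand for Alb and chr7:35119043-35119292 on the plus strand for Cebpa, all in GRCm38.p6 and written 5′ to 3′ along the gene. The box that the TATA-binding protein reads was searched as TATAAA. The C/EBP motif was searched as TTGCNNAA and the forkhead motif as TGTTTNC, and the pentamer CCAAT was searched as well, all on both strands. Matches of different motifs may share bases, and in the lines above only the TATAAA matches of Cp, 1 on each strand, overlap. The Alb window held 4 matches, of CCAAT on each strand and of the C/EBP and forkhead motifs once each, whereas the Cebpa window, at 66.4% GC and with 22 CpG, held a single TATA box. The F5 window, at 57.2% GC, held 0 matches, as did the window before the other start of Cp, which is not printed.

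In the 250 bases before the start, 13 of 33 promoters of secreted protein genes (39.4%) held the C/EBP motif, against 9.09% of 21263 promoters of all protein-coding genes and 14.4% of the 6806 promoters under 50% GC. The forkhead motif was also in 13, against 16.0% and 25.8%. Of 10 promoters of transcription factor genes, 2 held the forkhead motif, 0 the C/EBP motif and 4 the TATA box, which 15.2% of secreted protein promoters, 11.6% of all promoters and 25.8% of those under 50% GC held. CCAAT was in 36.4% of secreted protein promoters, against 35.4% of all promoters and 38.8% of those under 50% GC. These matches describe the letters of the windows and are not binding sites.

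No promoter window of these genes was overlapped by a peak. The count was 0 of 44 windows in KO and 0 of 44 in WT, and a count of 0, with a limit of 3 counts, allows a share of up to 6.82% in each. Of the promoter windows of protein-coding genes only 0.193% were overlapped in KO and 0.442% in WT. The KO peak nearest to a start was at Cp, with its midpoint 289 bp downstream of a start. The nearest in WT was at Afp, 1099 bp downstream.

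Of the 45 genes, 20 (44.4%, interval 29.6 to 60.0%) had a peak in KO, against 33.3% of all protein-coding genes. In WT 18 (40.0%, interval 25.7 to 55.7%) had one, against 47.7% of all protein-coding genes. The 45 windows covered 1.38 Mb, and longer genes hold more peaks, so each gene was set beside all protein-coding genes whose length was within 10% of its own. The gene itself was kept among them, both in the means and in the counts of genes with as many peaks. Genes of like length would have given 11.7 genes with a peak in KO and 18.8 in WT. The KO number was thus above that of genes of like length and the WT number close to it.

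A total of 48 KO peaks and 36 WT peaks lay in the windows of the 45 genes. Genes of like length would have given 19.8 peaks in KO and 30.0 in WT. The ratio of observed to like-length peaks was 2.43 (1.79 to 3.22) in KO and 1.2 (0.84 to 1.66) in WT. Of the peaks in these windows 57.1% (45.9 to 67.9%) were KO peaks, against 42.7% over the windows of all protein-coding genes. The mean was 1.07 peaks per gene in KO and 0.80 in WT, against 0.98 in KO and 1.32 in WT over all protein-coding genes, and the median was 0 in each case.

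**Figure D1:**
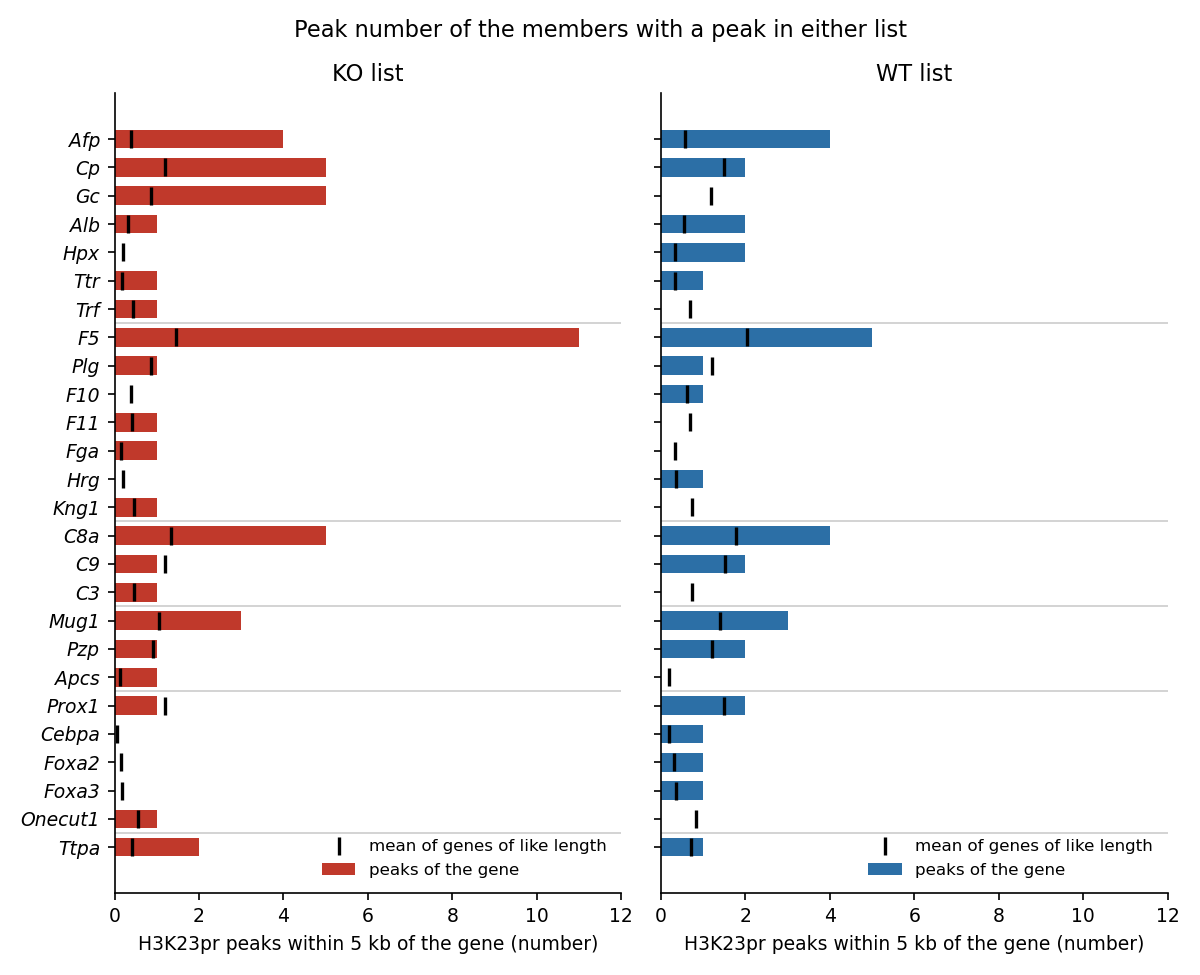
Number of H3K23pr peaks within 5 kb (bars) of the 26 genes with a peak in either list, KO at the left and WT at the right, with the mean of protein-coding genes of like length (black ticks). Grey lines part carriers, coagulation, complement, inhibitors and matrix proteins, transcription factors and intracellular proteins from top to bottom. F5 had 11 peaks in KO and 5 in WT, and Gc had 5 in KO and 0 in WT.

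Peaks in both lists were found at 12 of the 45 genes, against 24.3% of all protein-coding genes. They were F5, Cp, C8a, Alb, Afp, Mug1, Pzp, C9, Plg, Ttr, Ttpa and Prox1. A further 8 genes had a peak in KO only, against 9.05% of all protein-coding genes: Gc, Trf, F11, Fga, Kng1, C3, Apcs and Onecut1. Another 6 had one in WT only, against 23.4% of all genes: Hpx, F10, Hrg, Cebpa, Foxa2 and Foxa3. The KO-only genes were 17.8% and the WT-only genes 13.3% of the 45. The remaining 19 had no peak in either list, which at a floor of 4 fragments does not show that the mark was absent. They were Ahsg, Fgb, Fgg, Foxa1, Cebpb, Glul, Hp, F2, F7, F12, Itih1, Itih2, Itih3, Itih4, Ambp, Rbp4, Vtn, Fetub and Cfb.

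Secreted protein genes and transcription factor genes were then taken apart. Of the 36 secreted protein genes 17 (47.2%) had a peak in KO and 13 (36.1%) in WT. Genes of like length would have given 9.81 genes in KO and 15.6 in WT. Over all protein-coding genes the share was 33.3% in KO and 47.7% in WT. The windows of the secreted protein genes held 44 peaks in KO and 30 in WT, where genes of like length would have given 16.8 and 25.3. The ratio was 2.62 (1.9 to 3.52) in KO and 1.19 (0.80 to 1.70) in WT. Of the 7 transcription factor genes 2 had a peak in KO and 4 in WT, where genes of like length would have given 1.43 and 2.41 genes. They held 2 peaks in KO and 5 in WT. Genes of like length would have given 2.41 peaks in KO and 3.70 in WT, a ratio of 0.83 (0.10 to 2.99) in KO and 1.35 (0.44 to 3.15) in WT. The KO intervals of the 2 classes overlap, and so do the WT intervals. Overlap does not settle a difference between the classes, and no test of one was made. The transcription factor values rest on only 2 peaks in KO and 5 in WT.

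Per length, KO peaks stood at 38.2 per Mb of window (27.7 to 51.2) in secreted protein genes and at 11.3 per Mb (1.37 to 41.0) in transcription factor genes. In WT the peaks stood at 26.0 per Mb (17.6 to 37.1) in secreted protein genes and at 28.3 per Mb (9.20 to 66.1) in transcription factor genes. Over all protein-coding genes the density was 16.9 per Mb in KO and 22.7 per Mb in WT. The KO share of peaks was 59.5% (47.4 to 70.7%) in secreted protein genes and 28.6% (3.67 to 71.0%) in transcription factor genes.

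The KO number of the secreted protein genes rested in large part on a few genes. Without F5 the KO ratio was 2.15, from 33 peaks. Without F5, C8a, Cp and Gc, which were picked after their values were seen, it was 1.51 (0.89 to 2.38), from 18 peaks. Among peaks with a caller q of 0.05 or smaller the ratio was 3.00 in KO, from 16 peaks, and 1.62 in WT, from 5 peaks. Among the 5000 strongest peaks of each list the ratio was 1.16 (0.24 to 3.39) in KO from 3 peaks and 1.72 (0.56 to 4.02) in WT from 5 peaks. In KO the cut at 5000 fell among peaks tied in p, which were drawn at random. The KO ratio at this cut and the order of the lists therefore depend on that draw.

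**Figure D2:**
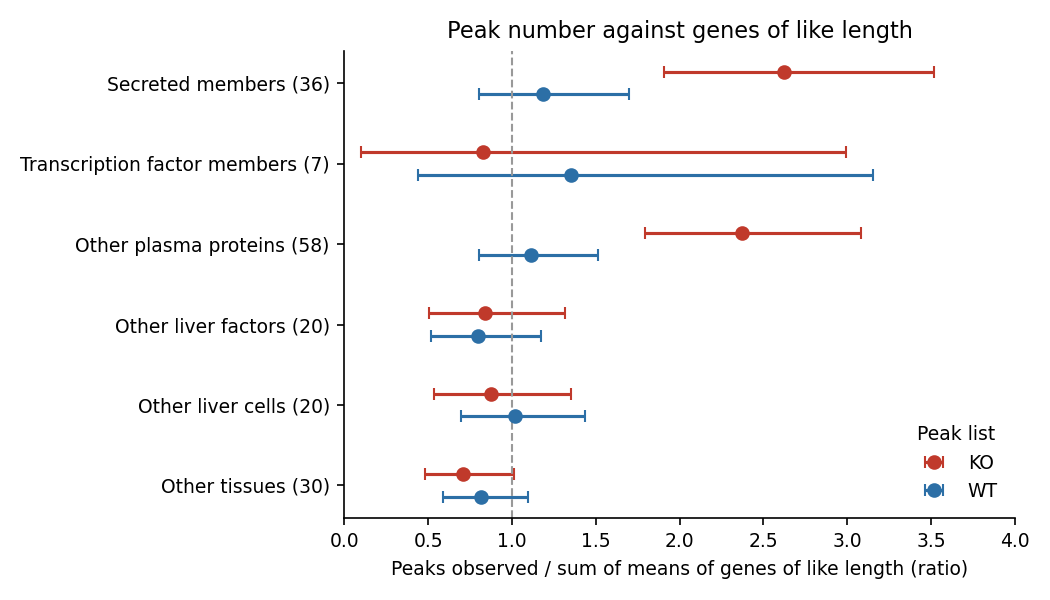
Ratio of the peaks observed to the sum of the means of genes of like length, for 6 gene lists with the number of genes in brackets. Points are ratios, bars are exact 95% intervals that cover counting error only, KO lies above WT in each pair, and the dashed line marks a ratio of 1. In KO the secreted protein genes lie at 2.62 and the other plasma protein genes at 2.37, and the remaining lists lie between 0.71 and 0.87.

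By role, the carriers had the highest KO ratio. The 10 carrier genes held 17 peaks in KO and 11 in WT, a ratio of 4.14 (2.41 to 6.63) in KO and 1.79 (0.89 to 3.20) in WT. The 12 coagulation and fibrinolysis genes held 15 peaks in KO and 8 in WT, a ratio of 2.93 (1.64 to 4.83) in KO and 0.99 (0.43 to 1.96) in WT. The 4 complement genes held 7 peaks in KO and 6 in WT, a ratio of 2.24 (0.90 to 4.62) in KO and 1.39 (0.51 to 3.03) in WT. The 10 genes of inhibitors and matrix-associated proteins held 5 peaks in each list, a ratio of 1.13 (0.37 to 2.64) in KO and 0.74 (0.24 to 1.73) in WT. These intervals overlap between roles within each list. The role values rested in large part on a few genes. F5 held 11 of the 15 coagulation and fibrinolysis peaks in KO and 5 of the 8 in WT. C8a held 5 of the 7 complement peaks in KO and 4 of the 6 in WT. Of the 17 carrier peaks in KO, Gc and Cp held 5 each and Afp held 4, and Afp held 4 of the 11 in WT.

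Among the carriers, Gc encodes the vitamin D binding protein. Its gene spans chr5:89417511-89457898 and held 5 peaks in KO and 0 in WT. All 5 KO peaks lay inside the gene, at 9313, 12357, 17913, 31847 and 37540 bp from its start, with 5, 4, 6, 5 and 5 fragments at the summit. The nearest WT peak to any of them was 21667 bp away. The mean of 1024 genes of like length was 0.85 peaks in KO and 1.18 in WT, and 22 of them had 5 or more peaks in KO. Genes with 4 or more peaks made up 7.48% of all protein-coding genes in KO and 9.76% in WT. The promoter of Gc, printed above, lay 9261 bp from the nearest KO peak.

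Cp encodes ceruloplasmin, the copper-carrying ferroxidase of plasma. The gene, at chr3:19956933-20009750, had 5 peaks in KO and 2 in WT. The KO peaks lay 2040 bp upstream of a start and 289, 15687, 28042 and 35344 bp downstream, with 4, 5, 4, 6 and 5 fragments. The WT peaks lay 12989 and 17456 bp downstream, with 7 and 6 fragments. The KO peak at 289 bp, chr3:19957472-19957605, was the nearest to a start among the peaks of all 45 genes. Of 859 genes of like length 33 had as many KO peaks and 367 as many WT peaks.

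Afp encodes alpha-fetoprotein, the albumin of the fetal liver, and lies next to Alb. It had 4 peaks in each list, more than most genes of its length. Of 1200 such genes, Afp itself included, 13 had 4 or more in KO and 8 in WT. The KO peaks each had 4 fragments. The WT peaks had 4, 6, 6 and 4. Alb, which encodes serum albumin, had 1 peak in KO and 2 in WT. The KO peak, with 5 fragments, lay 1285 bp upstream of the start, and the WT peaks, with 5 and 4 fragments, lay 3142 and 3365 bp inside the gene. Of 1241 genes of like length 290 had as many peaks as Alb in KO and 147 in WT.

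The other carriers had few peaks. Hpx, which encodes the haem carrier hemopexin, had 0 peaks in KO and 2 in WT, 1 of 7 fragments inside the gene and 1 of 4 fragments downstream. Trf, the transferrin gene, had 1 KO peak of 6 fragments and 0 in WT. Ttr, which encodes the thyroid hormone and retinol carrier transthyretin, had 1 peak in each list, with 5 fragments inside the gene in KO and 4 fragments 4701 bp outside it in WT. Hp, Ambp and Rbp4 had none in either list.

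F5 encodes coagulation factor V and had more peaks than any other of the 45 genes in both lists, 11 in KO and 5 in WT. The gene lies at chr1:164151835-164220277. The KO peaks were all inside it, between 3203 and 65687 bp from the start, and 6 of them had 4 fragments, 3 had 5 and 2 had 6. The WT peaks lay 3382 bp upstream, in the neighbouring gene Selp, and 5720, 24352, 35825 and 48008 bp inside F5, with 6, 4, 5, 5 and 7 fragments. No KO peak overlapped a WT peak, and the closest pair was 1505 bp apart. Genes of like length had a mean of 1.47 peaks in KO and 2.05 in WT. Of 726 such genes only F5 itself had 11 KO peaks, and 60 had 5 or more WT peaks.

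**Figure D3:**
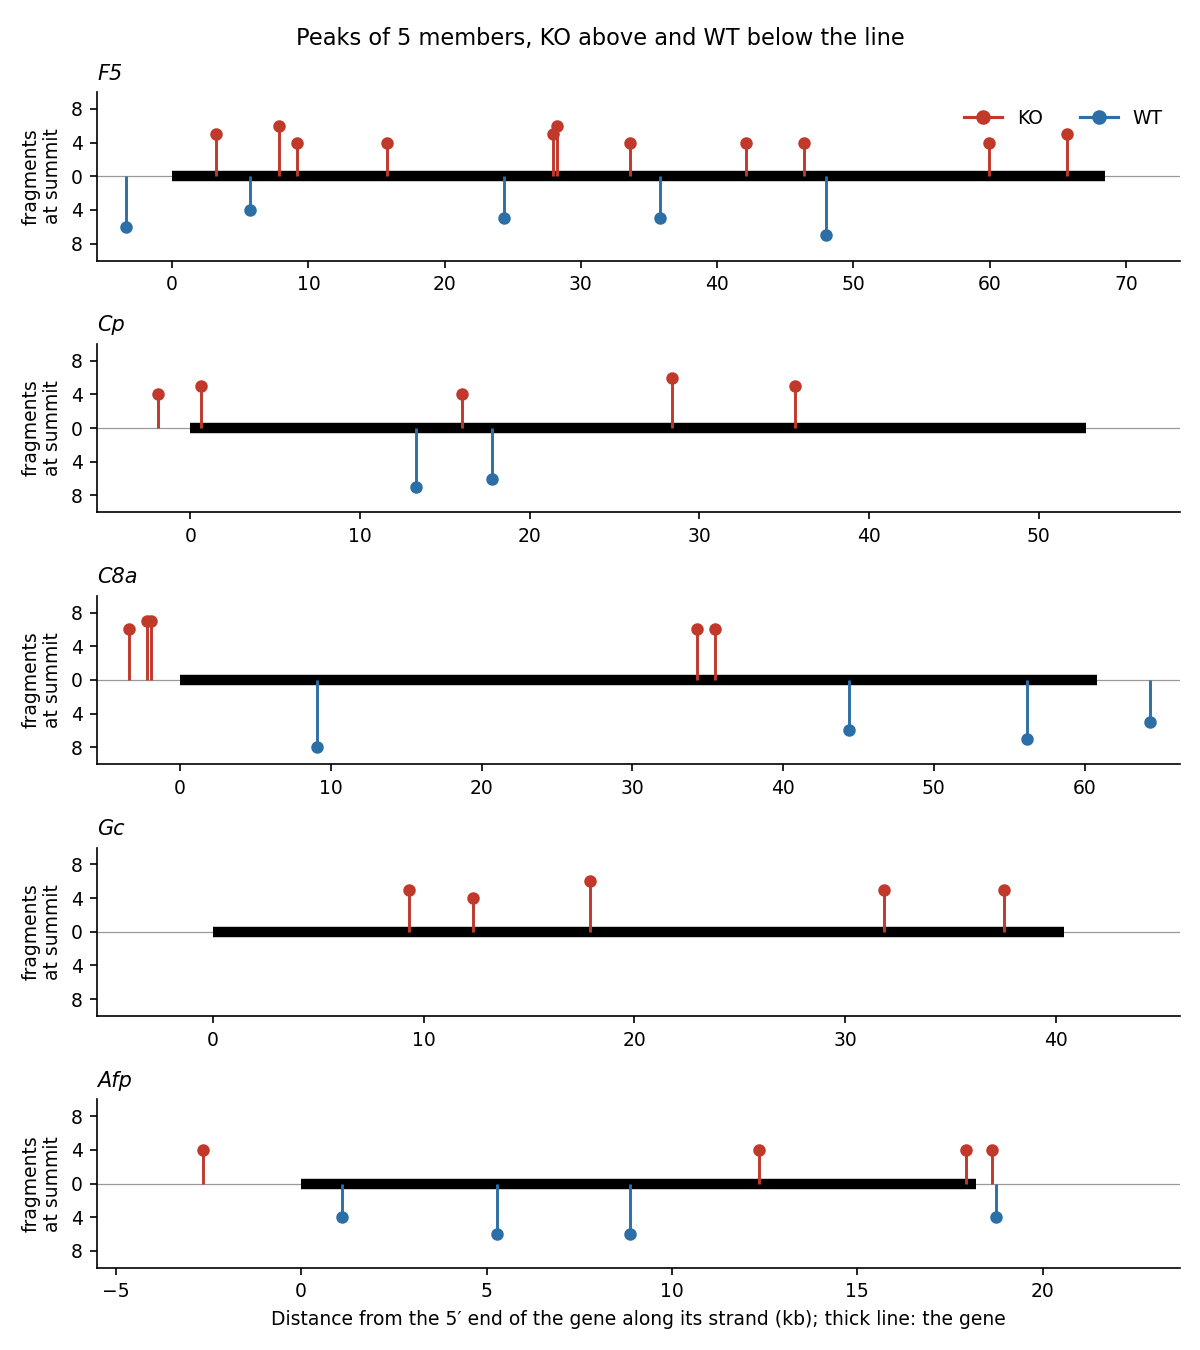
Peaks along F5, Cp, C8a, Gc and Afp by distance from the 5′ end of the gene in kb, with the number of fragments at the summit as the height, KO drawn above the line and WT below it. The thick line is the gene. The 11 KO peaks of F5 are spread over the gene, 3 KO peaks of C8a stand together upstream of it, and the panel of Gc has no WT peak.

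The other coagulation and fibrinolysis genes had at most 1 peak in a list. Plg, the plasminogen gene, had 1 peak in each, with 6 fragments in KO and 5 in WT, 2296 bp apart. Peaks in KO only were found inside Fga, which encodes the alpha chain of fibrinogen, inside Kng1, the kininogen gene, and 1232 bp upstream of F11, the factor XI gene, where a long non-coding gene, Gm30504, also lies. Each of these 3 peaks had 6 fragments. Peaks in WT only were found at F10, the factor X gene, and 2100 bp upstream of Hrg, which encodes histidine-rich glycoprotein, with 9 and 7 fragments. The F10 peak, chr8:13059257-13059367, was the strongest of the 36 WT peaks by fragments, but lay 2636 bp beyond the gene and 1217 bp from Proz, the protein Z gene. F2, F7, F12, Fgb and Fgg had no peak in either list.

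Of the complement genes, C8a encodes the alpha chain of C8, a part of the membrane attack complex. It had 5 peaks in KO and 4 in WT. Of the KO peaks, 3 stood together 2013, 2307 and 3499 bp upstream of the start with 7, 7 and 6 fragments, and 2 lay 34172 and 35364 bp inside the gene with 6 fragments each. All 5 KO sites also lie within the overlapping gene Fyb2, as does the WT site with 8 fragments. The WT peaks lay 8971, 44262, 56097 and 64279 bp from the start, the last beyond the gene's end, with 8, 6, 7 and 5 fragments, and none was within 8765 bp of a KO peak. Of 791 genes of like length 41 had 5 or more KO peaks and 99 had 4 or more WT peaks. C9, which encodes the component that forms the pore, had 1 KO peak of 6 fragments and 2 WT peaks of 4 fragments each. C3, the component all complement pathways share, had 1 KO peak of 7 fragments 3468 bp past its end and none in WT, and Cfb had none.

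Among the inhibitors and matrix-associated proteins, peaks were found at 3 of 10 genes. Mug1 encodes murinoglobulin, a protease inhibitor of rodent plasma related to alpha-2-macroglobulin, and had 3 peaks in each list. The KO peaks, with 5, 4 and 4 fragments, lay 984, 1838 and 24334 bp from the start, and the WT peaks, with 6, 5 and 4 fragments, lay 1328, 32916 and 40268 bp from it. Mug1 has a close relative, Mug2, beside it, and reads from such copies can be misplaced, so its counts are uncertain. Pzp, of the same inhibitor family, had 1 KO peak of 4 fragments and 2 WT peaks of 4 and 6, and the sites of the WT peaks also lie in Gm10069. Apcs, which encodes serum amyloid P, had 1 KO peak of 6 fragments 3230 bp upstream and none in WT. Itih1, Itih2, Itih3, Itih4, Ahsg, Fetub and Vtn had no peak in either list.

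The transcription factor genes held few peaks, of 4 to 7 fragments each. PROX1 is a homeobox factor of early liver development. Its gene had 1 KO peak of 4 fragments and 2 WT peaks of 5 and 7 fragments, all inside the gene. Onecut1, which encodes HNF6, had 1 KO peak of 6 fragments 4545 bp past its end and 0 in WT. Cebpa had 0 in KO and 1 in WT, of 7 fragments and 1062 bp past the gene's end, at chr7:35122929-35123051. Foxa2 had 0 in KO and 1 of 5 fragments in WT, 2514 bp upstream of the gene. Foxa3 had 0 in KO and 1 of 4 fragments in WT, inside the gene. Cebpb and Foxa1 had none in either list. The 2 genes of intracellular proteins differed: Ttpa, which encodes the vitamin E transfer protein, had 2 peaks in KO and 1 in WT, and Glul, the glutamine synthetase gene of hepatocytes around the central vein, had none. Of the Ttpa peaks, 1 in KO and the 1 in WT lay outside the gene, at a site that also lies in 4930598A11Rik, a long non-coding gene.

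The peaks were of modest height. The strongest had 7 fragments in KO and 9 in WT. At least 6 fragments were reached by 20 of 48 KO peaks (41.7%, interval 27.6 to 56.8%), against 29.9% of the whole KO list, and by 16 of 36 WT peaks (44.4%, interval 27.9 to 61.9%), against 34.3% of the whole WT list. A caller q of 0.05 or smaller was given to 19 KO peaks (39.6%, interval 25.8 to 54.7%), against 27.2% of the list, and to 6 WT peaks (16.7%, interval 6.37 to 32.8%), against 9.53% of the list. The local background was within 1.1 times its lowest common level at 85.4% of the KO peaks and 69.4% of the WT peaks, against 87.8% of the whole KO list and 89.4% of the whole WT list. The caller thus set a raised background at a larger share of the WT peaks of these genes than of the WT list. The part of this in the WT counts was not tested.

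Few sites were called in both genotypes. Only 2 of 48 KO peaks overlapped a WT peak (4.17%, interval 0.51 to 14.3%), against 1.1% of the whole KO list, although 12 genes had peaks in both lists. At the end of Afp the KO peak at chr5:90509307-90509389 overlapped the WT peak at chr5:90509365-90509537, with 4 fragments in each. Scaled to the fragments of each library this is a KO to WT ratio of 0.88 (0.16 to 4.73). Beside Ttpa the KO peak at chr4:20035182-20035380 overlapped the WT peak at chr4:20035127-20035262, with 7 fragments in KO and 5 in WT, a scaled ratio of 1.23 (0.34 to 4.92). These peaks lay 4459 bp in KO and 4372 bp in WT outside Ttpa, where a long non-coding gene, 4930598A11Rik, also lies. The intervals of both ratios take in 1. Within 500 bp of a WT peak there were 4 KO peaks, against 3.84% of the whole KO list, and within 1000 bp there were 5, against 6.57% of the list. At Mug1 the KO peaks at 984 and 1838 bp stood on either side of the WT peak at 1328 bp, 227 and 398 bp from it.

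Peaks did not gather at the ends of the genes. Within 2 kb of a gene end, in or out of the gene, lay 9 of 48 KO peaks (18.8%, interval 8.95 to 32.6%) and 6 of 36 WT peaks (16.7%, interval 6.37 to 32.8%), where 25.5% of the bases of the windows are. Over all protein-coding genes the share was 8.57% in KO and 11.3% in WT, where 13.1% of the bases are. All 9 of the KO peaks near an end were at secreted protein genes, which held 44 of the 48 KO peaks. Of the WT peaks near an end 4 were at secreted protein genes, which held 30 of the 36 WT peaks, and 2 at transcription factor genes.

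For the 38 genes with a strand, peaks were placed by their midpoint. In KO, 8 lay in the 5 kb upstream, 3 in the first 2 kb of the gene, 28 in its remainder and 3 in the 5 kb downstream. In WT these were 3, 2, 22 and 6. Per Mb of each zone the KO peaks stood at 42.1 upstream, 40.2 in the first 2 kb, 38.4 in the remainder and 15.8 downstream, against 12.6, 9.74, 18.4 and 13.1 over the 17492 protein-coding genes with a promoter entry. The WT peaks stood at 15.8, 26.8, 30.2 and 31.6 per Mb, against 21.9, 19.7, 23.4 and 19.8 over those genes. The 8 upstream KO peaks were 3 at C8a and 1 each at Alb, Afp, F11, Apcs and Cp. All are secreted protein genes, which held 40 of the 42 KO peaks placed. The peaks upstream of C8a also lie in Fyb2 and that upstream of F11 in Gm30504. The 3 upstream WT peaks were at F5, where the site also lies in Selp, and at Hrg and Foxa2.

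**Figure D4:**
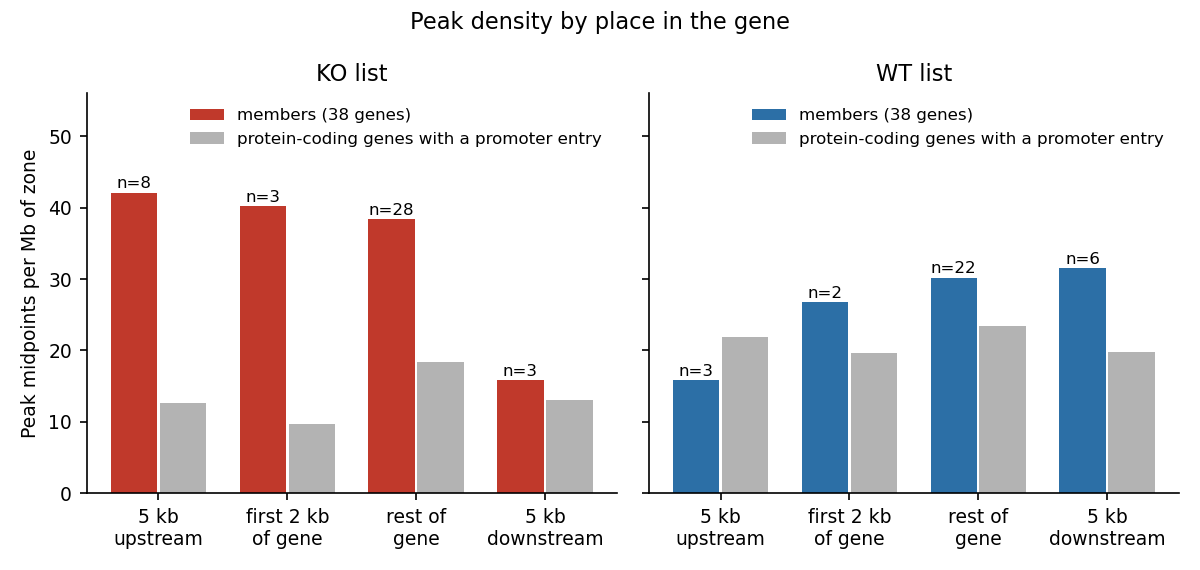
Density of peak midpoints per Mb of each zone for the 38 genes with a strand (coloured bars, number of peaks above) and for the 17492 protein-coding genes with a promoter entry (grey bars), KO at the left and WT at the right. Upstream the 38 genes stand at 42.1 per Mb in KO and 15.8 in WT, against 12.6 in KO and 21.9 in WT over those genes.

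Other genes of the same kind, also listed with earlier results of these data known, were counted in the same way. Of 58 further plasma protein genes 23 (39.7%) had a peak in KO and 20 (34.5%) in WT, where genes of like length would have given 13.4 and 22.2 and all protein-coding genes stood at 33.3% and 47.7%. Their windows held 56 peaks in KO and 41 in WT. The ratio to genes of like length was 2.37 (1.79 to 3.08) in KO and 1.12 (0.80 to 1.51) in WT, and the KO share of peaks was 57.7% (47.3 to 67.7%). Cpn1, which encodes a carboxypeptidase of plasma, had 1 peak in KO, of 10 fragments, and 2 in WT, of at most 6. Cpb2, a carboxypeptidase that slows the lysis of clots, had 3 peaks in KO and 2 in WT, of at most 7 fragments in each. Serpind1, the heparin cofactor gene, had 1 KO peak of 7 fragments and none in WT, and Proz had 0 in KO and in WT the peak of 9 fragments that F10 shares.

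Of 20 further liver transcription factor genes 10 (50%) had a peak in KO and 14 (70%) in WT, against 33.3% and 47.7% of all protein-coding genes. Genes of like length would have given 8.89 and 12.3. The 20 genes held 19 peaks in KO and 25 in WT, a ratio of 0.84 (0.51 to 1.31) in KO and 0.79 (0.51 to 1.17) in WT. Nr1h4, which encodes the bile acid receptor FXR, had 7 peaks in KO, the highest of 12 fragments, and 3 in WT, the highest of 8. Zhx2, a repressor of Afp in adult liver, had 1 in KO and 2 in WT.

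For comparison, 20 marker genes of other liver cells, such as Kupffer, endothelial, stellate and bile duct cells, were counted. Peaks were at 6 (30%) in KO and 13 (65%) in WT, against 33.3% and 47.7% of all protein-coding genes. Genes of like length would have given 7.66 and 10.9. The ratio of peaks was 0.87 (0.53 to 1.35) in KO and 1.02 (0.70 to 1.43) in WT. The 30 marker genes of other tissues had peaks at 7 (23.3%) in KO and 12 (40%) in WT, where genes of like length would have given 8.69 and 12.6. The ratio of peaks was 0.71 (0.48 to 1.01) in KO and 0.82 (0.59 to 1.1) in WT. Matched on length alone, the KO intervals of both plasma protein lists thus lay above those of the other liver factors, the other liver cells and the other tissues, and in WT the intervals of all of these lists overlapped. No test of a difference between lists was made. These intervals take peaks of the same gene as independent, so whether they overlap does not settle a difference between lists.

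Promoter GC moved with these KO values. Over protein-coding genes with an entry, parted by promoter GC into 5 groups of like size, the KO ratio to genes of like length was 1.31 in the group lowest in GC and between 0.93 and 1.05 in the others, and the WT ratio was between 0.96 and 1.06 in all. Against genes alike in length and within 5 percentage points in promoter GC, the KO ratio was 2.00 (1.43 to 2.72) for 30 secreted protein genes, from 40 peaks, and 1.62 (1.09 to 2.33) for 42 other plasma protein genes, from 29 peaks. Matched in this way, the KO ratio was 0.92 (0.51 to 1.52) for the other liver factors, 1.03 (0.59 to 1.68) for the other liver cells and 0.46 (0.22 to 0.85) for the other tissues. The intervals of both plasma protein lists then overlapped those of the other liver factors and the other liver cells. Both still lay above that of the other tissues. This match also left out the genes without a promoter entry. Against genes of like length alone the same plasma protein genes had KO ratios of 2.75 and 1.79. For genes with an entry in the other lists it was 0.98 for liver factors, 0.98 for liver cells and 0.45 for other tissues. With length alone matched for these genes, the interval of the secreted protein genes lay above those of liver factors and liver cells. That of the other plasma protein genes overlapped both. What part promoter GC and the genes left out have in these ratios was not tested, and the overlap of intervals does not settle it. In WT the secreted protein genes stood at 1.31 with GC matched and 1.29 without, and the other plasma protein genes at 0.82 and 0.79.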

How the data were processed

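H3K23pr ChIP-seq libraries were an immunoprecipitate and an input for each of 2 genotypes, 4 in all, grouped by the titles and genotype labels. Per the submitters' processing notes, the tools were cutadapt 1.9.3 and Bowtie2 2.2.4 and the build was mm10. Peaks of each IP over its own input were called from read pairs with MACS2 2.1.1.20160309, per the file headers. The caller kept up to 2 fragments of identical ends, took 1870000000 bp as the genome and passed peaks at p of 0.001. Replicates were not pooled, since each list came from 1 library. The pileup deposited by the authors is a signal that counts the fragments at a peak's summit. The fold deposited by the authors is the ratio of pileup to local background with a pseudocount of 1, and the deposited p-value and q-value of each peak are −log10 values. The fold, p and q are the authors' own and were used within each list alone, for description, order and filtering. Peak length and summit position are deposited in bp.

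Genes came from RefSeq tables of GRCm38.p6, the assembly behind mm10. All 173 genes of the lists matched, 1 of them by a synonym. The members and lists were chosen with earlier results of these data known. A peak was counted at a gene when it overlapped the gene with 5 kb on either side. The like-length number is the mean over protein-coding genes within 10% of the gene's length, the gene itself included. Its ratio carries an exact Poisson interval that takes the mean as fixed and the peaks as independent. Shares carry exact (Clopper-Pearson) 95% binomial intervals. No test between genotypes was made. All 45 genes were counted, and those with peaks in both lists, a peak of 6 or more fragments, 4 or more peaks, or a transcription factor product were described in full. Of each wider list up to 4 genes with the lowest caller p were open to naming. Alternatives were the flank, the length match, the peak strength and the distance to gene ends. Computation used Python 3.11.15, numpy 2.4.6, pandas 2.3.3, scipy 1.17.1 and matplotlib 3.10.9, and the counting was tested on simulated data.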

Additional observations from a re-analysis of the deposited data

How the results depend on the processing

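With peaks of at least 5 fragments, there were 31 KO peaks and 1 transcription factor gene with a KO peak, and 7 genes had peaks in both lists. Over all protein-coding genes 26.0% then had a peak in KO and 39.4% in WT. With at least 6 fragments there were 20 KO and 16 WT peaks, 11 genes with a WT peak, 1 transcription factor gene in KO and 2 in WT, and 3 genes in both lists. At that height 17.8% of all protein-coding genes had a peak in KO and 29.0% in WT. At q values up to 0.05 the lists had 13 KO and 6 WT genes of the 45, where 16.0% of all protein-coding genes had a peak in KO and 11.4% in WT. There were 19 KO and 6 WT peaks, 11 KO and 5 WT secreted protein genes, 1 transcription factor gene in each list and 2 genes in both. At that q the KO share was 76.0%, against 66.7% over all gene windows, the WT density of secreted protein genes was 1.76 times that of all genes, and 0 WT peaks lay within 2 kb of a gene end. Among the 5000 strongest peaks of each list, the KO values depend on a random draw among peaks tied in p. At this cut 9.03% of all protein-coding genes had a peak in KO and 10.9% in WT. Of the 45 genes 3 had one in KO and 6 in WT. There were 4 KO and 6 WT peaks, 2 KO and 5 WT secreted protein genes, 0 KO and 1 WT transcription factor genes, 0 genes in both lists and 3 in KO only. The ratio to genes of like length was then 1.31 in KO and 1.74 in WT over the 45 genes, 1.16 in KO and 1.72 in WT for secreted protein genes and 0 in KO for transcription factor genes, and the densities over all genes were 1.16 in KO and 1.84 in WT for secreted protein genes and 0 in KO for transcription factor genes, with a KO share of 40.0%. The 40000 strongest peaks, a flank of 2 kb or no flank each left 1 transcription factor gene in KO, and no flank left 2 in WT and 3 genes in WT only, against 11 in WT only with 10 kb. The share of all protein-coding genes with a KO peak was 31.7%, 29.6% and 27.1% in these settings in turn. In WT it was 37.3% with no flank and 56.4% with 10 kb. Within 1 kb of a gene end lay 6.25% of KO peaks, and within 5 kb 47.9% in KO and 50% in WT. Without F5, C8a, Cp and Gc, chosen after seeing the data as were the promoter GC match, the use of autosomes alone and the omission of F5, the KO ratio was 1.47 over the 45 genes and 1.51 for secreted protein genes. The cause was not tested, and the stricter settings hold fewer peaks by construction. A further 201 values of the 45 genes stayed within the margin set for them. Of the values for the wider lists and all genes 117 stayed within it and 22 moved, as with 6 or more fragments, where the ratio was 0.40 in KO for other tissues and 0.42 in WT for other liver cells. No paired analysis was possible because each genotype had 1 library, and for the same reason no library could be left out. At 4 to 9 fragments a peak, a site missing from a list did not pass the caller's p cut over its local background. Such a site is not shown to lack the mark.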
